A study of Mus musculus with 8 samples.

Results

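The fatty acid desaturases and elongases described here are 10 mouse genes whose enzymes make mono- and polyunsaturated acyl chains or lengthen them. They are Scd1, Scd2, Fads1, Fads2, Fads3, Fads6, Elovl1, Elovl2, Elovl5 and Elovl6, chosen by name as a family, and each was found once among the 40838 rows of the count table. Liver RNA from C57BL/6 mice, an inbred laboratory strain, was sequenced in 8 libraries, 4 per group. In the Lpcat3 group the mice had received an adeno-associated virus (AAV) carrying Lpcat3 behind the TBG promoter, which is active in hepatocytes, and in the eGFP group the same kind of virus carried enhanced green fluorescent protein as the control. All mice of both groups ate a diet that causes nonalcoholic steatohepatitis (NASH), a fatty, inflamed and scarred liver, for 7 weeks before the virus and 9 weeks after it, 16 weeks in total. The labels give neither the composition of the diet nor the age or sex of the mice, no group on normal diet was analysed here, and nothing in the labels says that the libraries came from different animals. P-values therefore measure the spread between libraries, whatever its source.

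Desaturases are membrane enzymes of the endoplasmic reticulum that take electrons from cytochrome b5 to place a double bond in an acyl-CoA. Stearoyl-CoA desaturases make oleate and palmitoleate from saturated chains, whereas the Fads enzymes place further double bonds in chains derived from the diet. Elongases of the Elovl family catalyse the first and rate-limiting condensation of each round of chain lengthening. In liver many of these genes are known targets of the transcription factor SREBP-1c, whose precursor is encoded by Srebf1, and arachidonate, an end product of the Fads route, is a preferred substrate of the acyltransferase encoded by Lpcat3. The comparison asks whether a raised level of that acyltransferase in hepatocytes was accompanied by a change in the genes that make its substrates.

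Promoter sequences of 7 of the 10 genes are held in the RefSeq promoter table of the mouse build GRCm38.p6, and Scd1, Scd2 and Fads1 have no entry there. Each window holds 250 bases before the start of the gene and 50 after it, printed 5′ to 3′ on the strand of the gene. The 4 below belong to genes on which the results on variation between libraries turn. In the main correlations over the 8 libraries, Elovl6 and Fads6 were the pair with the highest coefficient, though not in every setting. Elovl5 had its highest coefficient there with Scd2, and Fads2 had the smallest p-value of the family. Capitals mark matches on either strand to CACGTG (an E-box), CCAAT (the NF-Y motif), GGGCGG (an Sp1 motif), TCACNCCAC (a sterol regulatory element), the sterol regulatory element of the LDL receptor gene, which overlaps the former, or the DR4 element of the liver X receptor.
Elovl6, chr3:129532136-129532435, plus strand: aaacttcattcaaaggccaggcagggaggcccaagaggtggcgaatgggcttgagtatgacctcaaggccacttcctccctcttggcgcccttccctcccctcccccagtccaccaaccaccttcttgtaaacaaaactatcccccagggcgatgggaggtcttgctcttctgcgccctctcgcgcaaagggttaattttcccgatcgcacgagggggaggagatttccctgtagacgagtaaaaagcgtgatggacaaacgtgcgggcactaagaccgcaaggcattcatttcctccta
Fads6, chr11:115297513-115297812, minus strand: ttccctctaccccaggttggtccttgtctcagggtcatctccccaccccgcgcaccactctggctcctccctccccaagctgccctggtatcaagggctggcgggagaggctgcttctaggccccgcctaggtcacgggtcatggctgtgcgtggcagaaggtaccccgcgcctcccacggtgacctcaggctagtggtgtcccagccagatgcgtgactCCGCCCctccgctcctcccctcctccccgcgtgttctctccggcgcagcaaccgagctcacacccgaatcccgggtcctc
Elovl5, chr9:77917115-77917414, plus strand: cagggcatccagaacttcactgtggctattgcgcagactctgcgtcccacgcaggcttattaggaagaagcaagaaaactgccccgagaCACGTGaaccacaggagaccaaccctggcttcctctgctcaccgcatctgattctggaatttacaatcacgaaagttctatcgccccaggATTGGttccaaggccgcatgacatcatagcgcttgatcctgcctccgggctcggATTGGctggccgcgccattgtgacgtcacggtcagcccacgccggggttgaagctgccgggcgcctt
Fads2, chr19:10101454-10101753, minus strand: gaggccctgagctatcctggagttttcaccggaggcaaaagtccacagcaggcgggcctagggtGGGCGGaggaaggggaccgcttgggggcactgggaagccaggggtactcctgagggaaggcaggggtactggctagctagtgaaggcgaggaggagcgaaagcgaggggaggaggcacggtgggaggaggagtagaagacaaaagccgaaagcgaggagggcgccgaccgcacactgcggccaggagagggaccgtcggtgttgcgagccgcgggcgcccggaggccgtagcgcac
The Elovl5 window held 1 CACGTG, found in 7.15% of the 32851 windows in the table, and 2 copies of CCAAT, a motif found in 37.4% of windows. The Fads6 and Fads2 windows held 1 GGGCGG each, found in 35.7% of windows, and the Elovl6 window held no match to any of the 6 motifs. Neither sterol element nor the DR4 element was found in the windows of the 7 genes. Among all windows 1.24% held TCACNCCAC, 0.0913% the LDL receptor element and 0.0152% the DR4 element. A match is a run of letters and not a shown binding site, and the absence of a match covers only these 300 bases.

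Library totals ran from 22433625 to 25651874 counts, and the least abundant gene of the family still had 521 counts in its lowest library. Levels are given in CPM, the counts of a gene relative to the total of its library after scaling with edgeR's TMM factors. Lpcat3 itself was at 274, 401, 465 and 311 CPM in Lpcat3 replicates 1 to 4 and at 158, 148, 133 and 173 CPM in eGFP replicates 1 to 4, without overlap. Its log2 fold change was 1.25 (SE 0.17), with an adjusted p of 0.164 in edgeR and 9.77e-09 in DESeq2. On the first principal component, with 40.9% of the variance, eGFP replicate 3 lay at -46.1 and Lpcat3 replicate 3 at 51.0, at opposite ends of the 8 libraries. The numbers 1290, 1317, 1344 and 1345 in the sample titles, whose meaning is not given, fall unevenly on the groups. The titles with 1290 or 1317 cover 3 eGFP libraries and 1 Lpcat3 library, and those with 1344 or 1345 the reverse. Scaling by library totals in place of TMM lowers the median log2 fold change over all genes by 0.12.

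None of the 10 genes differed between the groups in edgeR's quasi-likelihood test after Benjamini-Hochberg adjustment over 17438 genes. The count called was 0 of 10, beside 0.00573% of all genes tested (1 gene). At an unadjusted p under 0.05 it was also 0 of 10, beside 8.48% of all genes, and in DESeq2 0 of 10, beside 0.298%. The groups overlapped for every one of the 10, whereas 4.16% of all genes had groups that did not overlap. All 10 genes passed the filter on low counts. The 95% intervals of the fold difference, Lpcat3 group over eGFP group, contained 1 for all 10, and their outermost bounds ran from 0.70 to 1.66. A 2-fold difference in either direction therefore lay outside the interval of each gene. Lpcat3 had an interval of 1.83 to 3.07 around its 2.37-fold difference.

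**Figure D1:**
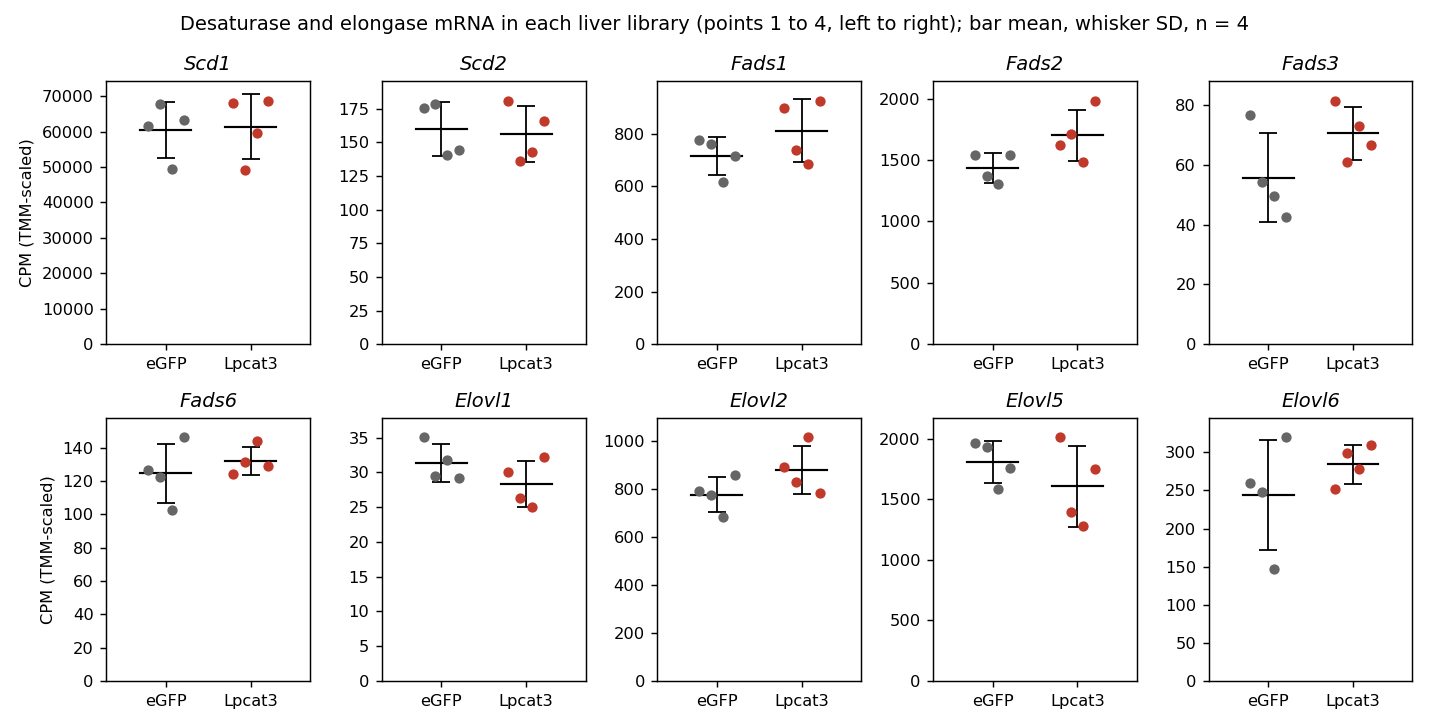
Level of each of the 10 genes in CPM (vertical axis, from 0) in the 4 eGFP libraries (grey) and the 4 Lpcat3 libraries (red), replicates 1 to 4 from left to right within a group, with the mean as a horizontal bar and the SD as a whisker. In every panel the points of the groups overlap, and the third grey point, eGFP replicate 3, is the lowest of its group in 8 of 10 panels.

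Scd1 gave more reads than any other gene tested. The gene makes stearoyl-CoA desaturase 1, the main oleate-forming enzyme of mouse liver. It took 6.28% ± 0.66 of all counts in the eGFP group and 5.92% ± 1.18 in the Lpcat3 group (SD, n = 4 each), and albumin (Alb), the next gene, took 3.98% ± 0.62 and 3.96% ± 0.84. Divided by exon length from the GENCODE M21 annotation, Alb stood above Scd1, at 16499 ± 3735 against 12362 ± 1611 CPM per kilobase in the eGFP group. The 10 genes together took between 5.10% and 7.69% of a library, and Scd1 made up 90.2% to 92.5% of that.

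Within the family, levels per kilobase of exon fell into a steep order. After Scd1 in the eGFP group came Elovl5 at 513 ± 49.8 CPM per kilobase and Fads2 at 436 ± 36.7, which overlapped. Elovl2 followed at 196 ± 18.5 and Fads1 at 149 ± 15.0 CPM per kilobase, each apart from its neighbours. Elovl6 at 37.9 ± 11.2 overlapped Scd2 at 29.3 ± 3.66 CPM per kilobase. Fads6 at 18.7 ± 2.67, Fads3 at 14.7 ± 3.92 and Elovl1 at 11.5 ± 0.996 CPM per kilobase closed the order, and each overlapped the next (SD, n = 4 for each level). In the Lpcat3 group Fads2, at 516 ± 63.7 CPM per kilobase, stood above Elovl5, at 456 ± 95.2, again with overlap, and the rest of the order was the same. There Elovl6 did not overlap Scd2, and Fads3 did not overlap Elovl1.

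The levels of the stearoyl-CoA desaturases were nearly equal in the groups. Scd1 was at 61555, 67830, 49342 and 63165 CPM in eGFP replicates 1 to 4 and at 68134, 49028, 59637 and 68767 CPM in Lpcat3 replicates 1 to 4. Each group thus held one low library, eGFP replicate 3 and Lpcat3 replicate 2, and the highest libraries of the groups lay close together. Scd1 had a log2 fold change of 0.02, with SE 0.19 and an edgeR adjusted p of 0.974, and its fold interval ran from 0.76 to 1.36. Its sign turned with library totals (-0.09), with limma-voom (-0.03), and without eGFP replicate 3 (-0.06), Lpcat3 replicate 1 (-0.03), Lpcat3 replicate 4 (-0.04) or both libraries numbered 3 (-0.05). Reads from near-identical copies could be divided between Scd1, Scd2, Scd3 and Scd4, and with the counts of all 4 summed the log2 fold change was again 0.02 (SE 0.19).

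Scd2, the isoform best known from brain and from liver of newborn mice, was at 176, 178, 141 and 144 CPM in eGFP replicates 1 to 4. In Lpcat3 replicates 1 to 4 it was at 181, 136, 143 and 166 CPM. Both groups held low and high libraries over nearly the same range. For Scd2 the log2 fold change was -0.03 (SE 0.12; adjusted p = 0.94 in edgeR; fold interval 0.82 to 1.17). Its sign turned without eGFP replicate 1 (0.02), eGFP replicate 2 (0.03), Lpcat3 replicate 2 (0.03) or Lpcat3 replicate 3 (0.01), and with either term for the code numbers. In every library Scd1 had 350 to 438 times the counts of Scd2.

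The Fads desaturases lay higher on average in the Lpcat3 group, without passing the test. Fads2 makes the delta-6 desaturase, the first and rate-limiting step from linoleic towards arachidonic acid. It was at 1540, 1370, 1301 and 1538 CPM in eGFP replicates 1 to 4 and at 1626, 1709, 1487 and 1985 CPM in Lpcat3 replicates 1 to 4. Only Lpcat3 replicate 3 fell within the range of the eGFP group, and the other 3 lay above it. This gave a log2 fold change of 0.24 (SE 0.12; adjusted p = 0.606 in edgeR, the smallest of the family), a fold of 1.18 with an interval of 0.98 to 1.42. Its sign was kept in all 19 alternative settings tried, between 0.13 with library totals and 0.30 without Lpcat3 replicate 3.

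Fads1 makes the delta-5 desaturase, which acts after Fads2 and completes arachidonic acid. Its levels were 775, 760, 615 and 713 CPM in eGFP replicates 1 to 4 and 899, 736, 684 and 926 CPM in Lpcat3 replicates 1 to 4. Lpcat3 replicates 1 and 4 lay above every eGFP library, while Lpcat3 replicates 2 and 3 lay within the eGFP range. For Fads1 the log2 fold change was 0.18 (SE 0.13; adjusted p = 0.671 in edgeR; fold interval 0.93 to 1.38). Over the 19 settings it lay between 0.07 with library totals and 0.29 with each code number as a term, and it was 0.11 without eGFP replicate 3 or Lpcat3 replicate 4.

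Fads3, a desaturase described as acting on sphingoid bases, was at 76.9, 54.2, 49.6 and 42.5 CPM in eGFP replicates 1 to 4 and at 81.6, 61.0, 73.0 and 66.7 CPM in Lpcat3 replicates 1 to 4. The overlap came from eGFP replicate 1 alone, which lay above 3 of the 4 Lpcat3 libraries. The estimate for Fads3 was 0.34 on the log2 scale (SE 0.17; adjusted p = 0.617 in edgeR; fold interval 0.96 to 1.66), the largest of the family. Over the settings it lay between 0.21 with library totals and 0.55 with a term for the code division, and was 0.54 without eGFP replicate 1. Fads6, a family member by sequence, was at 127, 123, 103 and 146 CPM in eGFP replicates 1 to 4 and at 124, 132, 144 and 129 CPM in Lpcat3 replicates 1 to 4, wholly inside the eGFP range. Its log2 fold change was 0.08 (SE 0.10; adjusted p = 0.809 in edgeR; fold interval 0.90 to 1.24), from -0.08 with each code number as a term to 0.17 without eGFP replicate 4, and -0.03 with library totals.

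The elongases showed differences of both signs, none past the test. Elovl5, whose enzyme lengthens polyunsaturated chains between the Fads2 and Fads1 steps, was at 1962, 1929, 1582 and 1758 CPM in eGFP replicates 1 to 4. In Lpcat3 replicates 1 to 4 it was at 2012, 1391, 1279 and 1746 CPM. Lpcat3 replicates 2 and 3 lay below every eGFP library and Lpcat3 replicate 1 above every one. Elovl5 thus had a log2 fold change of -0.17 (SE 0.16; adjusted p = 0.738 in edgeR; fold interval 0.70 to 1.13), from -0.30 without Lpcat3 replicate 1 to 0.02 with each code number as a term. Elovl2 makes the elongase that carries polyunsaturated chains on towards docosahexaenoic acid. It was at 790, 773, 681 and 860 CPM in eGFP replicates 1 to 4 and at 892, 828, 1015 and 782 CPM in Lpcat3 replicates 1 to 4. Lpcat3 replicate 3 was the highest of the 8 libraries and eGFP replicate 3 the lowest. Elovl2 had a log2 fold change of 0.18 (SE 0.11; adjusted p = 0.654 in edgeR; fold interval 0.95 to 1.35), from 0.05 without both libraries numbered 3 to 0.23 without eGFP replicate 4.

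Elovl6 makes the elongase that turns palmitate into stearate and so feeds Scd1. Its levels were 260, 248, 146 and 320 CPM in eGFP replicates 1 to 4 and 251.5, 299, 277 and 309 CPM in Lpcat3 replicates 1 to 4. All 4 libraries of the Lpcat3 group lay inside the eGFP range, which eGFP replicate 3 and eGFP replicate 4 set at its ends. For Elovl6 the log2 fold change was 0.22 (SE 0.20; adjusted p = 0.736 in edgeR; fold interval 0.85 to 1.60), from -0.03 with each code number as a term to 0.38 without eGFP replicate 4, and 0.04 without eGFP replicate 3. Elovl1, an elongase of saturated and monounsaturated very long chains, was at 35.05, 29.5, 31.8 and 29.2 CPM in eGFP replicates 1 to 4. In Lpcat3 replicates 1 to 4 it was at 29.99, 26.2, 24.98 and 32.1 CPM, with replicates 2 and 3 below every eGFP library. The difference in Elovl1 was -0.15 on the log2 scale (SE 0.10; adjusted p = 0.666 in edgeR; fold interval 0.78 to 1.05), and -0.26 with library totals.

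**Figure D2:**
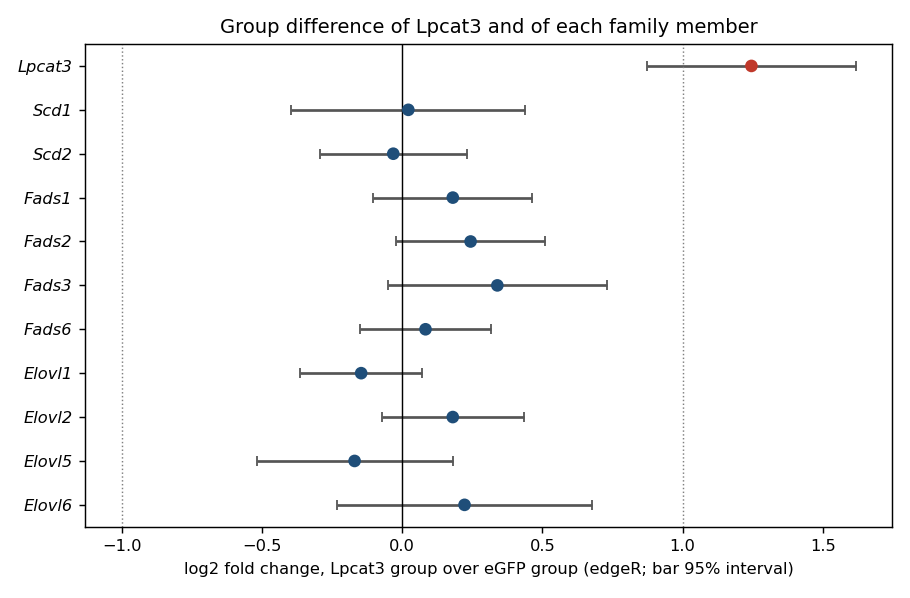
Log2 fold change between the groups (horizontal axis, Lpcat3 over eGFP) of Lpcat3 (red) and of the 10 genes (blue), with 95% intervals from the edgeR fit; dotted lines mark a 2-fold difference. All 10 family intervals cross 0 and stay between the dotted lines, while the interval of Lpcat3 lies above 0.

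Counted by sign alone, 7 of 10 genes were higher in the Lpcat3 group and 3 were lower, beside 48.5% of all genes higher. With library totals 5 were higher and 5 lower, beside 23.1% of all genes higher. The median log2 fold change of the family was 0.13, beside -0.01 over all genes tested. With library totals these medians were 0.02 and -0.13. The median of the family was 0.02 without eGFP replicate 3 and 0.0022 without both libraries numbered 3. Within the libraries numbered 1290 and 1317, all genes but Elovl1, which differed by -0.09 on the log2 scale, were higher in the Lpcat3 library. Within those numbered 1344 and 1345, Scd1 differed by -0.11, Fads6 by -0.12, Elovl5 by -0.27 and Elovl6 by -0.12, the opposite sign to that in the other libraries. The other 6 genes had the same sign in both, with Fads3 at 0.46 and 0.65, Fads2 at 0.22 and 0.16 and Fads1 at 0.33 and 0.12. Each of these divisions has 1 library in one of its arms, so no test was made within them.

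Markers of hepatocytes were high in all libraries, with a summed level of 67323 to 98839 CPM for 8 markers in the Lpcat3 group and 59548 to 85477 CPM in the eGFP group. Of these 8, 7 had a positive log2 fold change (median 0.14; 0 called by edgeR or DESeq2), beside 7 of 10 and 0.13 for the family. Without both libraries numbered 3 it was 3 of 8 (median -0.04), beside 5 of 10 and 0.0022 for the family. The summed level of 14 macrophage markers was lower in the Lpcat3 group, at 367 to 508 CPM against 516 to 819 CPM, without overlap. All 14 markers had a negative log2 fold change (median -0.57; 0 called by edgeR or DESeq2, 7 with an unadjusted p under 0.05), among them the defining marker Adgre1 at 28.5 ± 5.96 against 55.4 ± 21.8 CPM (SD, n = 4 each), and 10 of 14 were negative without both libraries numbered 3. In whole tissue, fewer cells of a type and less RNA per cell cannot be told apart. The part of these markers in the levels of the family was not tested.

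The balance between pairs of genes was compared as the log2 ratio of their counts within a library, which does not depend on how libraries are scaled. For 5 pairs the groups were compared by a two-sided exact permutation test over 70 relabellings, with 0.0286 as the smallest possible p. No pair passed after adjustment over the 5 pairs. A single pair at the smallest possible p could not have passed alone, so the adjusted values cannot decide whether any one pair differed. Before adjustment, the p of every pair lay above the smallest possible one. The smallest p belonged to the pair of polyunsaturated elongases. The log2 ratio of Elovl5 to Elovl2 was 1.31, 1.32, 1.22 and 1.03 in eGFP replicates 1 to 4 and 1.17, 0.75, 0.33 and 1.16 in Lpcat3 replicates 1 to 4. Lpcat3 replicates 2 and 3 were thus below every eGFP library, and the other 2 were inside the eGFP range. The difference was -0.37 (exact p = 0.114, adjusted over the 5 pairs 0.5), and -0.19 without Lpcat3 replicate 3.

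The log2 ratio of Elovl6 to Elovl5, elongases of the saturated and the polyunsaturated route, was -2.48 ± 0.37 in the Lpcat3 group and -2.94 ± 0.40 in the eGFP group, a difference of 0.46 (SD, n = 4 each; exact permutation p = 0.2, adjusted 0.5), and of 0.21 without both libraries numbered 3. Elovl6 to Scd1, the steps that lengthen palmitate and desaturate its product, stood at -7.75 ± 0.30 and -8.00 ± 0.33 (exact permutation p = 0.314, adjusted 0.524). Fads1 to Fads2 stood at -1.07 ± 0.15 and -1.01 ± 0.12 (exact permutation p = 0.486, adjusted 0.607). Scd1 to Scd2 stood at 8.61 ± 0.10 and 8.56 ± 0.15 (exact permutation p = 0.629, adjusted 0.629). In all 8 libraries Fads1 had 0.43 to 0.55 times the counts of Fads2.

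**Figure D3:**
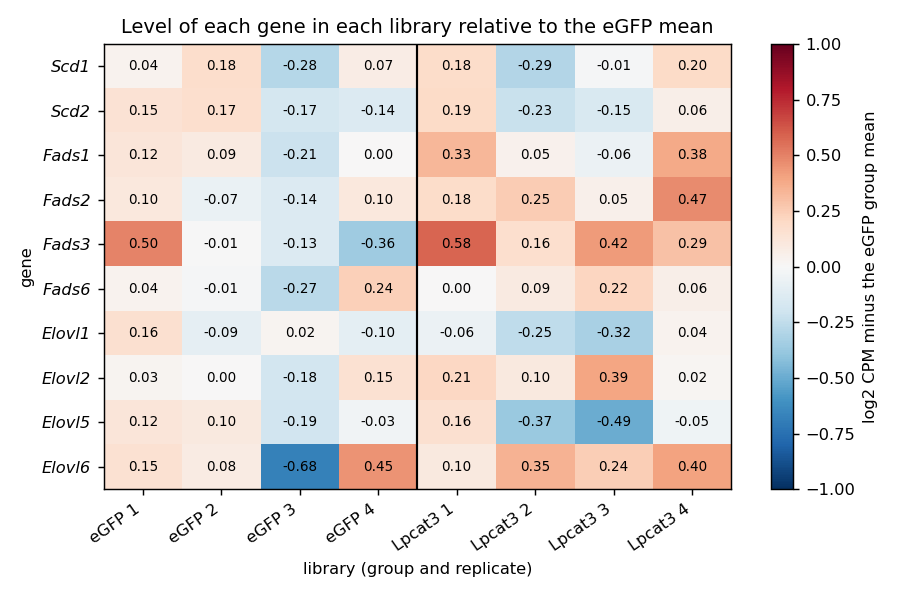
Log2 CPM of each gene (rows) in each library (columns, eGFP left and Lpcat3 right of the line) minus the mean of the eGFP libraries, with the value in each cell and its colour from -1 (blue) to 1 (red). Elovl6 in eGFP replicate 3, at -0.68, is the value farthest from 0. Both groups have rows with cells of either sign.

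The spread within a group differed from gene to gene. The coefficient of variation among the eGFP libraries ran from 8.41% for Fads2 to 29.5% for Elovl6, and among the Lpcat3 libraries from 6.35% for Fads6 to 20.9% for Elovl5. The highest library was 1.33 times the lowest for Scd2 and 2.18 times the lowest for Elovl6, the ends of the range for the 10 genes. Of the eGFP libraries, replicate 3 was the lowest for 8 of 10 genes, the exceptions being Fads3 and Elovl1. Of the Lpcat3 libraries, replicate 3 was the lowest for 4 and the highest for 2 genes, the latter being Fads6 and Elovl2.

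Across the 8 libraries 37 of the 45 pairs of genes had a positive Pearson correlation of log2 CPM (median r = 0.28), and 0 of 45 passed after adjustment (7 had an unadjusted exact permutation p under 0.05). The strongest was that of Fads6 with Elovl6 (r = 0.89, exact permutation p = 0.00813, adjusted over the 45 pairs 0.183; rho = 0.90, exact p = 0.00456, adjusted 0.163). Without eGFP replicates 3 and 4, the farthest from the median of Fads6, r was 0.46, so the strength of the relation depends on those libraries. It was 0.82 without both libraries numbered 3, 0.88 after each group was centred on its mean and 0.77 with library totals. Of their promoter windows, printed above, that of Fads6 held 1 motif match and that of Elovl6 none. Scd2 with Elovl5 followed (r = 0.85, exact permutation p = 0.00804, adjusted 0.183; rho = 0.88, exact p = 0.00724). This relation had r = 0.77 without its 2 farthest libraries, 0.90 after centring and 0.90 without both libraries numbered 3. With library totals r was 0.93 (exact permutation p = 7.44e-05), the only one of the 45 pairs that then passed after adjustment. After centring, the highest r of the 45 pairs was that of Fads1 with Elovl5, at 0.93, against 0.54 before centring. Its exact permutation p over orders within groups was 0.00521, adjusted 0.234.

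**Figure D4:**
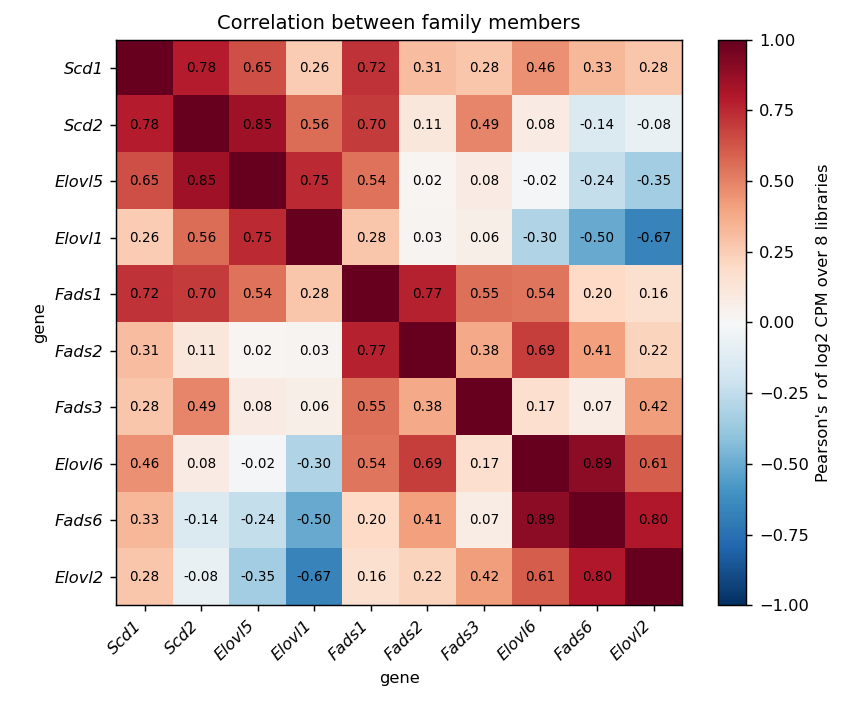
Pearson's r of log2 CPM over the 8 libraries for each pair of the 10 genes, from -1 (blue) to 1 (red), with the value in each cell and the order of genes set by hand after the values were seen. Scd1, Scd2, Elovl5 and Fads1 have r of 0.54 to 0.85 with each other, and Elovl6, Fads6 and Elovl2 of 0.61 to 0.89. Without both libraries numbered 3, r was 0.088 for Elovl2 with Elovl6, 0.35 for Fads6 with Elovl2 and 0.82 for Fads6 with Elovl6. In the first set it was then 0.36 for Fads1 with Elovl5 and 0.56 to 0.90 for the remaining pairs.

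Over the 8 libraries with TMM scaling, pairs that are neighbours in the genome had lower coefficients than Fads6 with Elovl6 and Scd2 with Elovl5. Scd1 with Scd2 had r = 0.78 (exact permutation p = 0.0206, adjusted 0.254; rho = 0.81, exact p = 0.0218), and 0.63 without eGFP replicate 3 and Lpcat3 replicate 2. Fads1 with Fads2, which lie in 1 cluster with Fads3, had r = 0.77 (exact permutation p = 0.0249, adjusted 0.254; rho = 0.74, exact p = 0.0458), but 0.27 without eGFP replicate 3 and Lpcat3 replicate 4. Elovl1 and Elovl2 had the most negative coefficient, r = -0.67 (exact permutation p = 0.0664, adjusted 0.331; rho = -0.57, exact p = 0.151), and -0.49 without eGFP replicate 1 and Lpcat3 replicate 3. The code numbers leave 4 libraries in each division, too few for a coefficient within them.

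A second family of 30 pairs set the 10 genes against Srebf1, the summed macrophage markers and Lpcat3, with adjustment over the 30. Fads6 with Srebf1 had r = 0.88 (exact permutation p = 0.00642, adjusted 0.193; rho = 0.67, exact p = 0.0831) and 0.71 without eGFP replicates 3 and 4. This r was 0.60 without both libraries numbered 3 and 0.65 with library totals. With Srebf1 the other genes had r of 0.72 (Elovl2), 0.72 (Elovl6), 0.39 (Scd1), 0.10 (Fads2) and 0.02 (Fads1). For Fads3 it was -0.01, for Scd2 -0.06, for Elovl5 -0.26 and for Elovl1 -0.52. Before centring, 0 of the 30 coefficients passed after adjustment. The levels of Lpcat3 and of the macrophage markers do not overlap between the groups. Their coefficients are therefore read after each group was centred on its mean, with p-values over the 576 orders within groups. Of the 30 centred coefficients 0 passed after adjustment, and 3 had an unadjusted p under 0.05. A single coefficient at the smallest p of these orders is adjusted to 0.0521, so no coefficient could have passed 0.05 alone. Fads6 with Lpcat3 had a centred r of 0.72 (exact permutation p = 0.00174, the smallest that these orders can give, adjusted 0.0521; rho = 0.93, exact p = 0.00347, adjusted 0.104). It was 0.93 without eGFP replicates 3 and 4, and 0.61 without both libraries numbered 3. Centred coefficients were not computed with library totals. Before centring, r of Fads6 with Lpcat3 was 0.54 with TMM scaling and -0.11 with library totals. Elovl1 with the macrophage markers had a centred r of 0.66 (exact permutation p = 0.0903, adjusted 0.451; rho = 0.52, exact p = 0.139), and 0.83 without eGFP replicate 1 and Lpcat3 replicate 4.

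By a rule that took, for 4 of the genes, the nearest of 7962 other genes of at least 10 CPM by Pearson's r over the 8 libraries, Scd1 was closest to Msl3 (r = 0.98), Scd3 (0.97) and Serinc3 (0.93). Scd3 is another stearoyl-CoA desaturase of the same gene cluster, and reads could be shared between them. Scd2 was closest to Fam20a (r = 0.97), Mrpl58 (0.97) and Dbi (0.95), the last of which encodes the acyl-CoA binding protein. Fads2 was closest to Tlcd4, Pdhx and Snx14 (each r = 0.95). Elovl6 was closest to Nudt12 (r = 0.98), Lrrc40 (0.97) and Pla2g6 (0.97), a phospholipase. None of these 12 genes was called between the groups in edgeR, and with 8 libraries and so many candidates coefficients of this size describe the libraries only.

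None of the genes around the family in the pathway passed the test. Over 8 lists with 67 genes, 64 were tested and 0 were called in edgeR or in DESeq2, beside 0.00573% and 0.298% of all genes. An unadjusted p under 0.05 in edgeR was found for 2 of the 64, beside 8.48% of all genes. By sign, 43 of 64 were higher in the Lpcat3 group, and 19 of 64 with library totals, beside 48.5% and 23.1% of all genes. The median log2 fold change was 0.05, and -0.06 with library totals. The groups did not overlap for 1 of the 64, Pla2g4a, beside 4.16% of all genes.

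Of the remaining desaturases and elongases, 3 of 6 tested were higher (median 0.02), or 1 of 6 with library totals. The median turned negative without Lpcat3 replicate 1 (-0.04), Lpcat3 replicate 4 (-0.02) or eGFP replicate 3 (-0.0024). It was also negative with library totals (-0.095) and limma-voom (-0.02). Fits that allowed for the code numbers moved this median the other way. All 6 genes were then higher, with medians of 0.13 (code division) and 0.14 (single code numbers). Elovl3, an elongase of saturated chains with a strong daily rhythm in liver, was at 42.9 ± 10.8 CPM with Lpcat3 against 33.03 ± 8.83 CPM with eGFP (SD, n = 4 each; edgeR adjusted p = 0.636). Elovl7 was at 3.57 ± 1.91 against 5.25 ± 4.07 CPM, and Degs2, a sphingolipid desaturase, at 0.83 ± 0.29 against 0.96 ± 0.43 CPM. Enzymes that complete each round of elongation were higher in 4 of 6 cases (median 0.06), or 2 of 6 with library totals. Among them the dehydratases Hacd4 and Hacd3 were at 4.84 ± 0.71 against 6.80 ± 0.999 CPM (edgeR adjusted p = 0.564) and at 168 ± 11.3 against 151 ± 14.0 CPM, and the reductase Tecr was at 145 ± 7.83 against 134 ± 15.1 CPM.

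Electron supply by cytochrome b5 and its reductases was split, with 3 of 6 genes higher (median 0.0048), or 1 of 6 with library totals. Without Lpcat3 replicate 1 (-0.02), Lpcat3 replicate 4 (-0.02), eGFP replicate 3 (-0.04) or eGFP replicate 4 (-0.0025) that median was negative. Cyb5a was at 866 ± 92.1 CPM with Lpcat3 against 789 ± 103 CPM with eGFP, Cyb5b at 611 ± 28.8 against 576 ± 48.3 CPM and Cyb5r1 at 7.14 ± 1.21 against 7.81 ± 0.60 CPM. Acyl-CoA synthetases and binding proteins, which provide the CoA esters that these enzymes use, were higher in 5 of 8 cases (median 0.09), or 4 of 8 with library totals. Acsl1, the main long-chain synthetase of liver, was at 1385 ± 324 against 945 ± 340 CPM (edgeR adjusted p = 0.599). Acsl4, which prefers arachidonate, was at 143 ± 17.5 against 126 ± 11.6 CPM and Slc27a2, a very long-chain synthetase, at 1992 ± 245 against 1739 ± 279 CPM.

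Genes that supply saturated chains were higher in 6 of 8 cases (median 0.04), or 2 of 8 with library totals. Without eGFP replicate 3 the count was 3 of 8 (median -0.04), and without Lpcat3 replicate 4 the median was -0.0048. The fatty acid synthase gene Fasn was at 837 ± 249 CPM with Lpcat3 against 962 ± 260 CPM with eGFP (edgeR adjusted p = 0.813). The carboxylase Acaca was at 359 ± 58.4 against 411 ± 38.2 CPM, and the citrate carrier Slc25a1 at 128 ± 4.26 against 114 ± 12.5 CPM. Genes of transcriptional control were higher in 10 of 12 cases (median 0.07), or 3 of 12 with library totals. Insig2, which holds SREBP in the endoplasmic reticulum, was at 157 ± 43.1 against 200 ± 40.6 CPM (edgeR adjusted p = 0.643), Scap, the SREBP escort, at 92.2 ± 10.7 against 80.8 ± 11.7 CPM and the nuclear receptor Rxra at 338 ± 27.8 against 302 ± 40.4 CPM. For Srebf1 itself the value on the log2 scale was 0.05 (SE 0.20; adjusted p = 0.94 in edgeR).

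Peroxisomal enzymes, which shorten very long polyunsaturated chains in the last step towards docosahexaenoic acid, were higher in 9 of 10 cases (median 0.10), or 4 of 10 with library totals. The transporter Abcd3 was at 586 ± 67.2 CPM with Lpcat3 against 489 ± 81.3 CPM with eGFP (edgeR adjusted p = 0.616), the reductase Decr2 at 255 ± 11.1 against 221 ± 34.5 CPM and the thiolase Acaa1a at 289 ± 19.2 against 263 ± 25.2 CPM. Enzymes that turn polyunsaturated chains into signalling lipids were higher in 3 of 8 cases (median -0.12), or 2 of 8 with library totals. Without eGFP replicate 3 the count was 5 of 8 (median 0.03), and without both libraries numbered 3 it was 4 of 8 (median 0.05). Pla2g4a, the phospholipase that releases arachidonate, was at 3.31 ± 0.70 against 5.77 ± 1.45 CPM (log2 fold change -0.80, SE 0.22; edgeR adjusted p = 0.564). The epoxide hydrolase Ephx2 was at 691 ± 105 against 568 ± 90.7 CPM, and the cyclooxygenase Ptgs1 at 14.3 ± 1.93 against 16.8 ± 3.03 CPM.

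**Figure D5:**
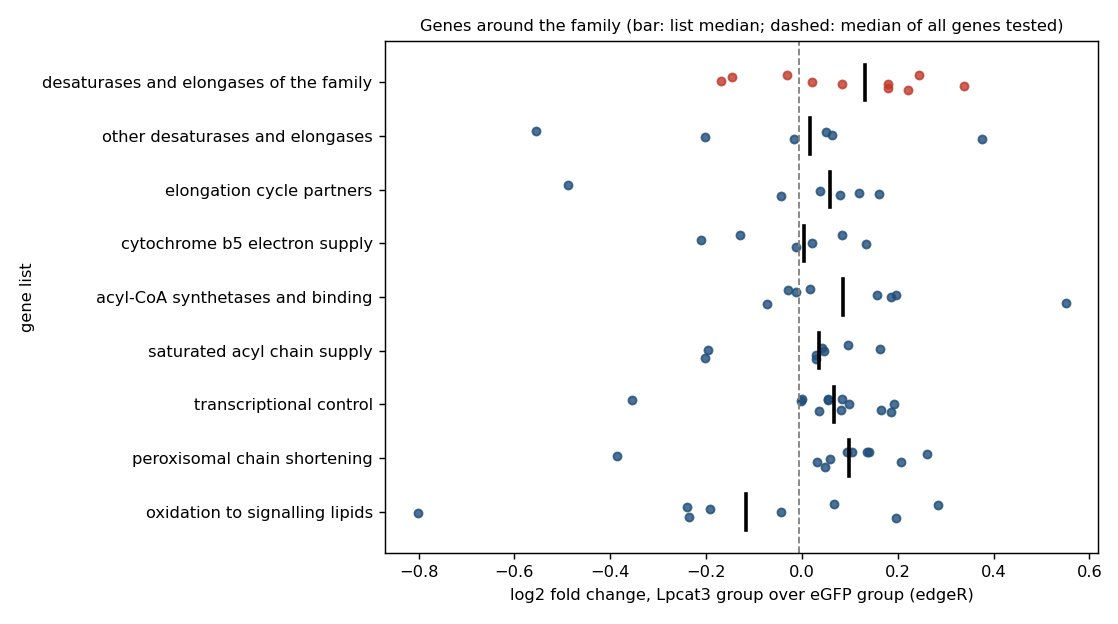
Log2 fold change (horizontal axis, Lpcat3 over eGFP) of each tested gene of the family (red, top) and of the 8 lists around it (blue), with the list median as a black bar and the median of all genes tested, -0.01, as a dashed line. List medians lie between -0.12 and 0.10, and the family median is 0.13.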

How the data were processed

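Libraries were stranded and depleted of ribosomal RNA, per the labels' protocols. The counts that the authors deposited are unnormalized and stand in 1 table, with a row per NCBI gene and a column for each of the 8 libraries. Per the submitters' processing notes, bcl2fastq 2.20, DESeq2 and the build GRCm39 were used. Aligner, counter and its strand setting: not given in the sources used here, so reads of overlapping or near-identical genes are uncertain. Columns were matched to samples by the code in each title. Symbols came from a RefSeq gene table of GRCm38, which matched 39397 of 40838 rows (99.5% of counts).

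Genes were filtered with filterByExpr (minimum count 10), scaled with TMM and tested with edgeR 4.0.16 (R 4.3.3; robust glmQLFit, glmQLFTest, group as the only term), with Benjamini-Hochberg adjustment over 17438 genes and a threshold of 0.05. Intervals used the SE and degrees of freedom of the same fit. CPM used totals over tested genes, and log2 CPM a prior count of 2. Exon lengths are unions of GENCODE M21 exons. These steps were tested on simulated data. From each pathway list the 3 genes with the smallest p are named. Alternatives were other scalings, filters and covariates, DESeq2 1.42.0, limma-voom (limma 3.58.1) and left-out libraries. Family, lists and tests were chosen with earlier results of these data known.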

Additional observations from a re-analysis of the deposited data

How the results depend on the processing

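The family had 0 genes called in all 19 alternative settings tried. Over all genes 1 was called, against 3 with library totals, 2 in edgeR without robust estimation, 51 in DESeq2, 0 without a filter, 0 without both libraries numbered 3, 0 with the code division as a term, 0 with each code number as a term, and 0 to 7 without each library in turn. The replicate numbers do not pair the samples (correlations of same-numbered libraries from -0.40 to 0.28), and with the replicate number as a block 0 genes were called and the family median was 0.13. That median was 0.0022 without both libraries numbered 3. Of 191 log2 fold changes of single genes under alternatives, 19 had the opposite sign. Scd1 was at -0.085 with library totals, -0.031 with limma-voom, -0.050 without both libraries numbered 3, and from -0.065 to 0.12 without each library in turn. Scd2 was at 0.086 with the code division, 0.10 with each code number, and from -0.11 to 0.030 without each library in turn. Fads6 was at -0.032 with library totals, -0.042 without both libraries numbered 3, -0.020 with the code division and -0.083 with each code number. With each code number Elovl1 was at 0.00022, Elovl5 at 0.023 and Elovl6 at -0.030. The difference in balance of Scd1 to Scd2 was -0.016 without both libraries numbered 3 and -0.14 within codes 1344 and 1345, that of Fads1 to Fads2 was 0.12 within codes 1290 and 1317, and that of Elovl6 to Scd1 was -0.0085 within codes 1344 and 1345. Of the 45 correlations 1, Scd2 with Elovl5, passed with library totals, against 0. The cause of these changes was not tested. Of 152 medians of pathway lists under alternatives, 6 moved by more than the spread between libraries. The sum of Scd1 to Scd4 was added after seeing the data.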

Other observations

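Markers of other cells were measured in the same libraries, and 0 of them were called in edgeR or DESeq2. At an unadjusted p under 0.05 in edgeR stood 2 endothelial and 2 cholangiocyte markers, 1 T and NK cell marker and 1 neutrophil marker. Over all genes the share was 8.48%. Endothelial markers had a negative log2 fold change in 8 of 8 cases (median -0.21), with a summed level of 345 to 433 CPM in the Lpcat3 group and 427 to 464 CPM in the eGFP group. Cholangiocyte markers were positive in 5 of 6 cases (median 0.48), with sums of 39.0 to 125 against 37.8 to 86.0 CPM. Stellate cell and fibroblast markers were negative in 7 of 10 cases (median -0.07), but in 2 of 10 without both libraries numbered 3, with sums of 480 to 800 against 648 to 788 CPM. Markers of T and NK cells summed to 3.82 to 5.47 against 2.90 to 9.47 CPM, those of B and plasma cells to 2.54 to 3.87 against 3.10 to 5.07 CPM and those of neutrophils to 4.99 to 7.96 against 7.35 to 19.7 CPM. Adipocyte markers summed to 92.2 to 160 against 92.8 to 124 CPM, and 2 of them were tested. Cidec was at 96.9 ± 37.4 against 103 ± 16.2 CPM, and Cfd at 28.2 ± 22.5 against 7.90 ± 9.30 CPM (SD, n = 4 each). The sum came almost wholly from Cidec and Cfd. The adipocyte genes Adipoq and Plin1 reached at most 0.07 and 0.08 CPM in any library, and Lep had 0 counts in every library. Erythroid genes summed to 275 to 363 against 298 to 458 CPM.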
